A study of Mus musculus with 9 samples.

Results

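Genes for transporters and markers of brain barrier vessels were examined by gene symbol in RNA-seq libraries of meningeal lymphatic endothelial cells (MLECs), namely Slc2a1, Slc7a5, Mfsd2a, Slco1c1, Slco1a4, Abcb1a, Abcg2, Bsg, Itm2a and Spock2. The members were chosen for their known place at the blood-brain barrier, with earlier results of these data known, and all 10 were found among the 24321 genes listed. MLECs came from the meninges of male C57BL/6 mice aged 10 weeks, which had received PBS (Control), GL261 glioma cells about 3 weeks earlier or B16 melanoma cells about 2 weeks earlier. Each of the 3 groups had 3 libraries, and each library was made from 10 sorted cells out of a pool of meninges from 6 mice. The labels place the injection in the cisterna magna and the study's methods under the dura. The study's results give 2 weeks after injection for both tumors. The sorting panel held CD31, CD45 and LYVE-1, none of which is restricted to lymphatic vessels, and the study's results name PDPN where the labels name LYVE-1. The question was whether the blood endothelial signal in the tumor-bearing groups carried the transporters of barrier vessels.

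Endothelial cells of brain capillaries form the blood-brain barrier: tight junctions seal the cell borders, few vesicles cross the cells, and nutrients and drugs pass largely by transporters. Wnt ligands from neural tissue, acting through beta-catenin, keep this program on. Vessels of the dura, the outer meningeal layer, lie outside this barrier and many are fenestrated.

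Slc2a1 and Abcb1a were the 2 members that passed the test as higher in tumor-associated MLECs, and Mfsd2a and Slco1c1 were listed at 0 in every library. Their upstream sequences are shown so that these pairs can be set against each other. Each is the 250 bases before the RefSeq start on the gene's strand (GRCm38.p6), at chr4:119108495-119108744 (+) for Slc2a1, chr5:8566841-8567090 (+) for Abcb1a, chr4:122961189-122961438 (-) for Mfsd2a and chr6:141524104-141524353 (+) for Slco1c1. The Abcb1a window ends at chr5:8567090, whereas GENCODE M1 starts this gene at chr5:8660077 in mm9, another build. Whether the window lies beside the start used in these cells was not measured. Capitals mark ACGTG, the core of the element bound by hypoxia-inducible factors, and CTTTGA, a core bound by the TCF/LEF factors of Wnt signaling, on either strand (TCAAAG is CTTTGA on the other strand).
Slc2a1: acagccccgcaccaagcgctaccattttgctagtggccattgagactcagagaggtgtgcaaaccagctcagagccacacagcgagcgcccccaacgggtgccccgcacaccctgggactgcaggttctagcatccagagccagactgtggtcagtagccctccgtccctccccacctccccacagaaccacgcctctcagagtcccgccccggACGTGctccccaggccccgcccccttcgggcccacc
Abcb1a: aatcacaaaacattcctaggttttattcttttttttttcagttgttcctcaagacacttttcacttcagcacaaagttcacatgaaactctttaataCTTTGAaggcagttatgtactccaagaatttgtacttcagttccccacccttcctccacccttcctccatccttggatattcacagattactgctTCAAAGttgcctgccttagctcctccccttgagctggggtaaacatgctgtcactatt
Mfsd2a: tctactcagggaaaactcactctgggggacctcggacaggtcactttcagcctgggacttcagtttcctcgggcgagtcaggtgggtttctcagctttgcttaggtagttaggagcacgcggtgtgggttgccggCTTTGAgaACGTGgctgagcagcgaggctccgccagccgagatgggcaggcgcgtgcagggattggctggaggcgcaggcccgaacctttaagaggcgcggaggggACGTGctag
Slco1c1: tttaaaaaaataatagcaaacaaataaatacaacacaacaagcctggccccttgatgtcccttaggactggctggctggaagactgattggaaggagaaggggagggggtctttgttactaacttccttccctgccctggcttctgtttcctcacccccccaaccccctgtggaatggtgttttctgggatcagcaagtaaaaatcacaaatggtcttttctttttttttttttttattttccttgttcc
Slc2a1 held 1 ACGTG and no CTTTGA, Abcb1a held 2 CTTTGA, Mfsd2a held 2 ACGTG and 1 CTTTGA, and Slco1c1 held neither. Only these exact letters were sought, so other forms of either core were not counted. No ACGTG shown lies in CACGTG, which would match on both strands. ACGTG was present in 16.6% and CTTTGA in 13.8% of the 32851 RefSeq windows of this length. Slc2a1 and Mfsd2a had 13 and 17 CpG, Abcb1a and Slco1c1 had 0, and the median window had 6. The ETS core CCGGAA was present in 3952 of all windows and in none of those of the 8 members with a RefSeq window.

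The values are FPKM, fragments scaled by transcript length and by the mapped fragments of a library, and differences are given on the log2(FPKM + 1) scale. Between 7303 and 8688 genes were above 0 in control libraries and between 8736 and 10852 in tumor libraries, so detection moved with group, although Control 2 and B16 1 were close (8688 and 8736). In all, 44.3% of the genes were listed at 0 in all 9 libraries. Tbp, which every cell transcribes and which was chosen after its values were seen, was listed at 0 in Control 1 and Control 3, so a 0 is called listed at 0 and not absence. Hprt, Ppia, Actb and Gapdh, which every cell also uses, were above 0 in all 9 libraries. Control 1 stood apart by smooth muscle genes (Acta2 505, Tagln 641 and Myh11 57.2 FPKM, against at most 6.34 in any other library). Counts of calls over the members and lists are given without it where they changed.

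Control libraries carried Prox1 (20.9, 33.7 and 42.2 FPKM) and Lyve1 (974 to 1705 FPKM), both genes of lymphatic endothelium. By the labels the cells were sorted on LYVE-1, so the level of Lyve1 is no independent support for lymphatic identity. In tumor libraries Lyve1 overlapped the controls (628 to 1895 FPKM), whereas Prox1, the master regulator of lymphatic identity, lay between 1.87 and 16.5 FPKM, below all controls (limma adjusted p = 0.0509). Over all genes tested, limma called 2.90% as higher in tumor against control. Of 9 blood endothelial genes, a list chosen with earlier results of these data known, 8 rose in tumor libraries (7 without Control 1). They include Ly6c1 (listed at 0 in all controls, 393 to 4375 FPKM in tumor), Ly6a (8.12, limma adjusted p = 0.0066), Cd34, a capillary sialomucin (6.38, adjusted p = 0.0002), and Flt1, a VEGF receptor (6.18, SE 0.50, adjusted p = 3.0e-05). Ly6c1 passed the filter on low values through tumor libraries alone. With the number of detected genes as a covariate, Ly6a (limma adjusted p = 0.451) and Cd34 (0.0577) no longer passed, while Ly6c1 and Flt1 did. The rise of these genes is the blood endothelial signal beside which the barrier genes were read.

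Slc2a1 encodes GLUT1, which carries glucose into the brain (mm9, chr4:118781316-118809935, + strand). Its level was 17.9, 7.37 and 0 FPKM in the control libraries, 211, 311 and 312 FPKM in GL261 libraries, and 143, 77.6 and 174 FPKM in B16 libraries. All tumor libraries lay above all controls, with no overlap. Slc2a1 rose by 5.10 on the log2(FPKM + 1) scale in tumor against control (SE 0.77, 95% interval 3.44 to 6.76, limma adjusted p = 0.0021), a 24.2-fold ratio of mean FPKM. The two-sided exact permutation test over libraries gave p = 0.0119, the smallest that 84 divisions allow. In libraries of sorted cells, more cells of a type and more RNA per cell cannot be told apart. Without Control 1 the difference was 6.00 (adjusted p = 0.0012), and with the number of detected genes as a covariate it was 4.88 and no longer passed (adjusted p = 0.175).

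**Figure D1:**
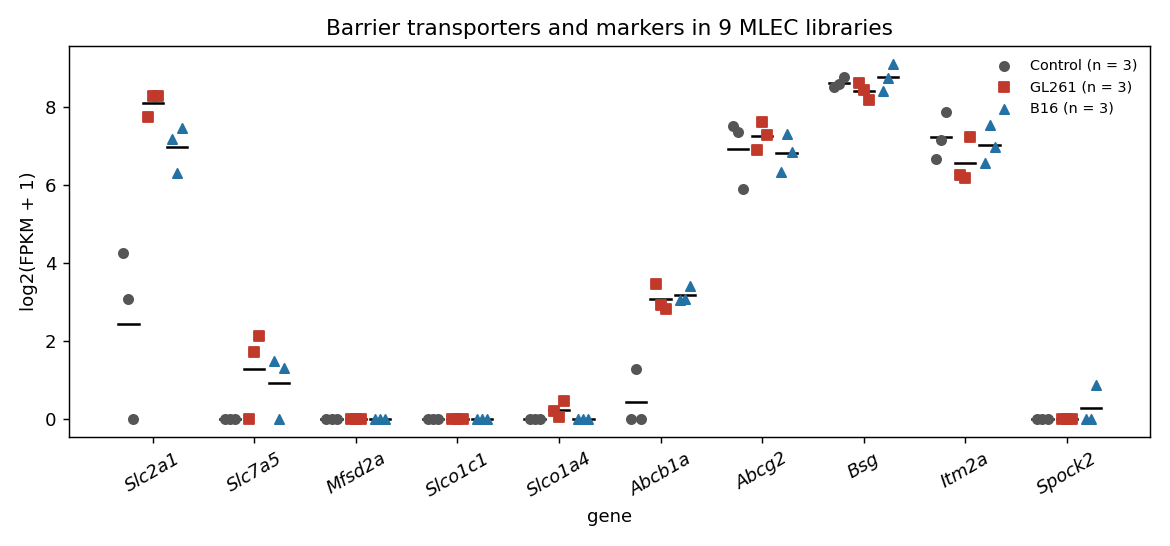
Level of each of the 10 genes as log2(FPKM + 1) (vertical axis) in each library, by gene (horizontal axis). Points are libraries (3 control, 3 GL261, 3 B16) and lines are group means. Slc2a1 and Abcb1a are higher in all 6 tumor libraries than in any control, Abcg2, Bsg and Itm2a overlap, and Mfsd2a and Slco1c1 are at 0 throughout.

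The other carriers that feed the brain were at or near 0. Slc7a5 encodes LAT1, the light chain of a carrier of large neutral amino acids (chr8:124405052-124431594, - strand). It was listed at 0 in all control libraries, at 0, 2.28 and 3.39 FPKM in GL261 libraries and at 1.78, 0 and 1.46 FPKM in B16 libraries. At least 1 library of every group was thus at 0 and the groups overlapped (limma adjusted p = 0.349). Slc7a5 passed the filter on low values through tumor libraries alone. Its partner Slc3a2, the heavy chain shared with other amino acid carriers, was at 79.4, 128 and 124 FPKM in control, 92.4, 116 and 67.2 FPKM in GL261, and 242, 296 and 195 FPKM in B16 libraries. The B16 libraries were thus the highest, yet Slc3a2 did not pass in tumor against control (0.44, limma adjusted p = 0.654) or in B16 against control (1.15, adjusted p = 0.154).

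Mfsd2a imports lysophospholipids that carry docosahexaenoic acid and restrains vesicle traffic across barrier endothelium (chr4:122624093-122638431, - strand). Slco1c1 imports thyroxine (chr6:141472907-141518241, + strand). Both were listed at 0 in all 9 libraries. Slco1a4, an organic anion carrier of brain capillaries (chr6:141753961-141804720, - strand), was listed at 0 in all control and all B16 libraries and at 0.15, 0.03 and 0.37 FPKM in GL261 libraries. Neither these nor Spock2 reached an FPKM of 1 in any library, so 4 of the 10 members were not tested. Slco1a4 shared 2.65% of its 50-base stretches with Slco1a5, and Slco1c1 shared 0 with its relatives, so that shared sequence concerns few of their bases. FPKM hold no read counts, so no lowest detectable level can be given.

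Of the pumps that return drugs to the blood, Abcb1a, which encodes P-glycoprotein (chr5:8660077-8748575, + strand), was listed at 0, 1.42 and 0 FPKM in control libraries. It was at 9.96, 6.63 and 6.11 FPKM in GL261 libraries and at 7.24, 7.39 and 9.59 FPKM in B16 libraries. The groups did not overlap, and the tumor libraries lay within a narrow range. Abcb1a rose by 2.70 in tumor against control (SE 0.66, 95% interval 1.26 to 4.13, limma adjusted p = 0.0398, exact permutation p = 0.0119). The call was lost when any of Control 1 (2.48, adjusted p = 0.102), Control 3, GL261 1, 2 or 3, or B16 2 or 3 was left out, and it held in 5 of 16 alternatives (adjusted p from 0.0094 to 0.498). Tbp had the same form, at 0, 1.31 and 0 FPKM in control libraries and between 9.06 and 16.7 FPKM in the tumor libraries (3.44, SE 0.65, limma adjusted p = 0.0101). With the number of detected genes as a covariate, the difference of Abcb1a was 2.23 and did not pass (adjusted p = 0.498). Abcb1a shared 15.5% of its 50-base stretches with its neighbor Abcb1b. The study's paired reads were longer than these stretches, and the share of reads that could not be assigned was not measured. Abcb1b itself was at 0, 0 and 6.61 FPKM in control and at most 2.66 FPKM in tumor libraries (limma adjusted p = 0.936).

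Abcg2, the breast cancer resistance protein (chr6:58534517-58642863, + strand), was present in every library. It was at 180, 163 and 58.5 FPKM in control, 117, 194 and 154 FPKM in GL261, and 79.6, 157 and 114 FPKM in B16 libraries. The groups overlapped throughout. The tumor difference was 0.12 (95% interval -0.77 to 1.02, limma adjusted p = 0.909), and its sign turned when libraries were rescaled or when Control 3, the lowest, was left out (-0.39).

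Bsg, or basigin, is a surface glycoprotein that escorts lactate carriers to the membrane (chr10:79167103-79174724, + strand). It was the highest of the members in control libraries (366, 380 and 434 FPKM), and it was at 390, 343 and 288 FPKM in GL261 and 341, 427 and 549 FPKM in B16 libraries. Its groups overlapped, with a difference of -0.04 (95% interval -0.58 to 0.50, limma adjusted p = 0.952) whose sign turned without Control 3 or GL261 3. Itm2a encodes a membrane protein enriched in brain endothelium (chrX:104592438-104598715, - strand). It was at 101, 141 and 232 FPKM in control, 75.1, 71.7 and 149 FPKM in GL261 and 92.8, 183 and 125 FPKM in B16 libraries. These groups overlapped as well (-0.44, 95% interval -1.30 to 0.42, limma adjusted p = 0.585). Spock2, a secreted proteoglycan (chr10:59568967-59597946, + strand), was listed at 0 in all libraries but B16 3, where it was 0.83 FPKM. Abcg2, Bsg and Itm2a were thus at 58.5 FPKM or more in every control library.

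Of the 6 members tested, 2 rose and 0 fell in tumor against control, where limma called 3.93% of 9955 genes in either direction and 2.90% as higher. Without Control 1, only Slc2a1 passed. The tumor and control libraries did not overlap for 2 members, and for 10.5% of all genes tested. The median difference over all genes tested was 0.20, a shift that was 0.05 after rescaling of libraries and 0.03 after quantile normalization. Of all calls, 73.9% were higher in tumor (64.4% after rescaling, 62.1% after quantile normalization).

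Both tumor groups were compared with the same 3 controls. Slc2a1 rose by 5.66 in GL261 (95% interval 3.76 to 7.57, limma adjusted p = 0.0053; 0.0024 without Control 1) and by 4.54 in B16 (2.63 to 6.44, adjusted p = 0.0222; 0.0068 without Control 1), and it was the member called in each comparison, with 3.49% of genes called in GL261 and 2.11% in B16. The B16 call was lost when any 1 of the B16 libraries was left out (adjusted p from 0.0596 to 0.107). Abcb1a differed by 2.65 in GL261 (0.94 to 4.36, adjusted p = 0.0999) and by 2.75 in B16 (1.04 to 4.46, adjusted p = 0.104). GL261 libraries were all above B16 libraries in Slc2a1, by 1.13 (95% interval -0.78 to 3.04, limma adjusted p = 1.00). By limma, 0 of the 6 members passed between the tumors (0 also at an unadjusted p under 0.05), where 0.0100% of all genes did. The interval was narrowest for Bsg (-0.93 to 0.23), so differences between the tumors within these bounds stay possible. By the labels GL261 was taken at about 3 weeks and B16 at about 2 weeks, so tumor type and time after injection cannot be told apart.

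**Figure D2:**
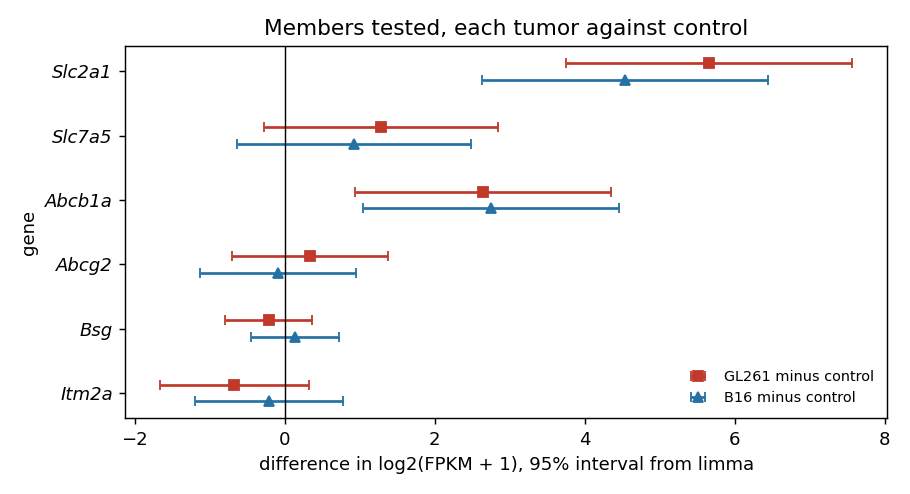
Difference from control in log2(FPKM + 1) (horizontal axis) for the 6 members tested (vertical axis), for GL261 (squares) and B16 (triangles), with 95% intervals from limma. The intervals of Slc2a1 and Abcb1a lie above 0 in both tumors, and those of the other members include 0.

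Within the tumor libraries the members ordered as Bsg (288 to 549 FPKM), Slc2a1 (77.6 to 312), Abcg2 (79.6 to 194) and Itm2a (71.7 to 183), then Abcb1a (6.11 to 9.96) and Slc7a5 (0 to 3.39). The ranges of neighbors among the first 4 overlapped. Abcb1a was below all of these and above Slc7a5 in every tumor library. Slc2a1 ranked between 381 and 1200 from the top of the genes above 0 in tumor libraries, and at 3478 and 5447 in the control libraries where it was above 0. Relative to Pecam1, a gene of all endothelium, Slc2a1 was at a ratio of 0.0613, 0.0253 and 0 in control, 0.549, 0.975 and 1.01 in GL261 and 0.401, 0.186 and 0.372 in B16 libraries. Control and tumor libraries did not overlap on that ratio. Relative to Cdh5, another gene of all endothelium, they did not overlap either (at most 0.474 in control and at least 0.930 in tumor libraries). They did overlap on the ratios to Flt1 and Plvap. Relative to Flt1, which rose itself, Slc2a1 was at 180, 8.61 and 0 in control, 2.00, 2.43 and 3.15 in GL261 and 2.91, 0.497 and 1.31 in B16 libraries, so that 2 controls lay above all tumor libraries. In these 2 controls Flt1 was under an FPKM of 1, so both ratios rest on a divisor near the floor. Relative to Plvap, Slc2a1 was at 0.0262, 0.0053 and 0 in control, 0.116, 0.155 and 0.213 in GL261 and 0.0549, 0.0192 and 0.0603 in B16 libraries, with Control 1 above B16 2.

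Likeness of pattern over the 9 libraries was measured by Pearson's r of log2(FPKM + 1) and is a description, since the libraries share their groups and their depth. Nearest to Slc2a1 were Esd (r = 0.97), H2afj (0.97) and Mcam (0.96), a surface adhesion molecule of blood vessels. Nearest to Abcb1a were Entpd1 (r = 0.99), an ectonucleotidase of vascular endothelium, Ptrhd1 (0.99) and Capg (0.99). Among the members above 0 in at least 6 libraries, Slc2a1 and Abcb1a were the most alike pair (r = 0.88), and Slc2a1 and Itm2a the least (r = -0.63). Abcg2 was nearest to Fam173b (r = 0.94), Hddc2 (0.94) and Irf2 (0.93), Bsg to Svil (0.92), Tmem127 (0.90) and Ntmt1 (0.88), and Itm2a to Zscan26 (0.96), Hadha (0.96) and Tyk2 (0.91).

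Of 16 other transporters and receptors of barrier endothelium, 3 to 5 reached an FPKM of 1 in a control library, 6 to 10 in a GL261 library and 5 to 7 in a B16 library. Of the 16, 9 were tested, 1 rose and 0 fell in tumor against control (median difference 0.38 beside 0.20 over all genes), and without Control 1 this call was lost. The one that rose was Insr, the insulin receptor, at 0, 10.4 and 0.54 FPKM in control libraries and between 14.8 and 29.0 FPKM in those of tumors (3.08, SE 0.76, limma adjusted p = 0.0409). That call was lost without Control 1 or 3, or any 1 tumor library (adjusted p from 0.0516 to 0.123). Slc16a1, the lactate carrier MCT1 that Bsg escorts, was listed at 0 in all controls, at 0.03, 2.22 and 4.75 FPKM in GL261 and at 0.12, 0 and 0 FPKM in B16 libraries, and was not tested. Slc6a6, a taurine carrier named after its values were seen, was listed at 0 in all controls and at 0.07 to 17.9 FPKM in tumor libraries (limma adjusted p = 0.0998). Slc6a6 passed the filter on low values through tumor libraries alone. Slc22a8, an organic anion carrier of brain endothelium, was listed at 0 throughout.

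**Figure D3:**
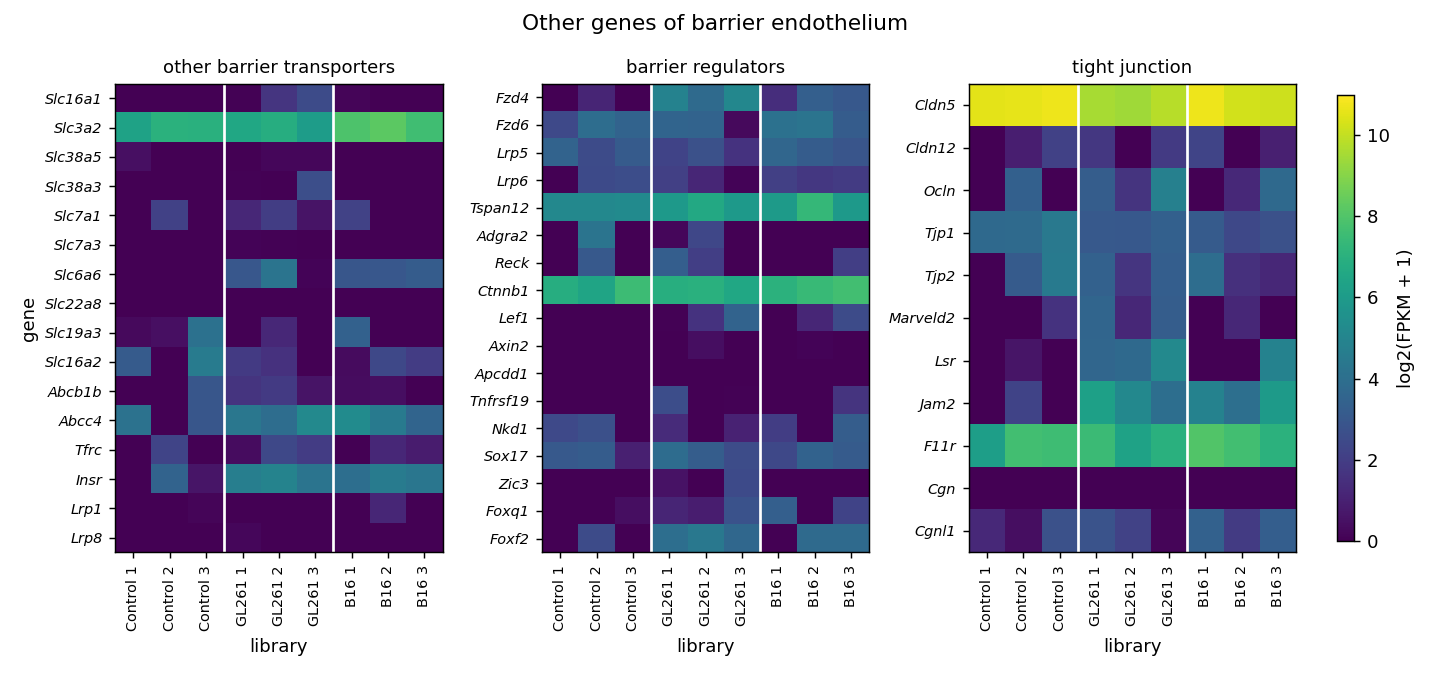
Level as log2(FPKM + 1) (color scale) of other barrier transporters and receptors, Wnt and transcription regulators of the barrier, and tight junction genes (vertical axes) in each library (horizontal axes; white lines part control, GL261 and B16). Between 3 and 5 of the 16 transporters and receptors reach an FPKM of 1 in control libraries, between 6 and 10 with GL261 and between 5 and 7 with B16, and Jam2 and Insr are higher in the tumor libraries.

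Regulators of the barrier program gave 12 genes to the test out of 17, of which limma called 0 higher and 0 lower in tumor against control (median difference 0.45). At an unadjusted p under 0.05 it counted 3 higher and 0 lower, and 6 had a ROC power above 0.4, computed here from FPKM as deposited and without the software of the study, which 5137 of all genes also had. Lef1, a Wnt-responsive transcription factor of brain endothelium, was listed at 0 in all controls and at 0.04, 2.03 and 10.4 FPKM in GL261 and 0, 1.28 and 4.64 FPKM in B16 libraries (limma adjusted p = 0.331). Lef1 passed the filter on low values through tumor libraries alone. The Wnt targets Axin2 and Apcdd1 did not exceed 0.34 FPKM in any library. Nkd1, another Wnt target of the list, was high enough to be tested and did not pass (-0.067 without Control 1, limma adjusted p = 0.981). Fzd4, the Norrin receptor, named because it was the only call of this list in a single tumor, was at 0, 1.20 and 0 FPKM in control, 28.2, 13.2 and 32.7 FPKM in GL261 and 1.69, 9.03 and 7.05 FPKM in B16 libraries. It rose in GL261 against control (4.21, limma adjusted p = 0.0221), not in B16 (2.21, adjusted p = 0.253) or in both joined (3.21, adjusted p = 0.0596), and the tumors did not differ from each other by the test (adjusted p = 0.867). Without Control 1 no regulator passed in GL261.

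Of 11 tight junction genes, 10 were tested, 1 rose and 0 fell in tumor against control (median difference 0.48). It was Jam2, a junctional adhesion molecule of blood vessels, at 0, 3.62 and 0 FPKM in control libraries and between 14.7 and 74.9 FPKM in those of tumors (4.30, SE 0.75, limma adjusted p = 0.0065; 3.94 and 0.0268 without Control 1). Cldn5, the main claudin of barrier endothelium and also present in lymphatic vessels, was at 1497, 1529 and 1702 FPKM in control, 765, 698 and 890 FPKM in GL261 and 1679, 1203 and 1136 FPKM in B16 libraries. Each GL261 library was below each control. Cldn5 fell by 1.01 in GL261 (SE 0.21, limma adjusted p = 0.0215) and differed by -0.25 in B16 (adjusted p = 0.616), with -1.05 in GL261 without Control 1 (adjusted p = 0.0487), and the difference between the tumors did not pass (-0.76, adjusted p = 0.381).

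Plvap, which forms the diaphragms of fenestrae and is low in mature barrier vessels, was at 686, 1390 and 905 FPKM in control, 1813, 2004 and 1462 FPKM in GL261, and 2599, 4037 and 2887 FPKM in B16 libraries. All tumor libraries exceeded all controls. Plvap rose by 1.29 in tumor against control (SE 0.31, limma adjusted p = 0.0338, exact permutation p = 0.0119) and by 1.71 in B16 (adjusted p = 0.0075), with 0.87 in GL261 (adjusted p = 0.110). The joined call was lost without Control 1 (1.06, adjusted p = 0.138), Control 3, GL261 2 or any 1 of the B16 libraries (adjusted p from 0.0507), and after rescaling (1.06) or quantile normalization (0.93). Per Pecam1, Plvap overlapped between groups, with ratios between 2.34 and 6.05 in control, between 4.73 and 6.29 in GL261 and between 6.17 and 9.70 in B16 libraries. Plvap exceeded Slc2a1 in each of the 9 libraries on the FPKM scale.

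Of the 8 genes of capillaries outside the brain, 7 were tested, 2 rose and 2 fell (1 and 0 without Control 1; median difference 1.29). Fabp4, a fatty acid binding protein of peripheral capillaries, rose by 5.08 (limma adjusted p = 0.0009; 4.31 and 0.0043 without Control 1), and Plvap is the other that rose. Cd36, a fatty acid receptor, fell by 4.79 (limma adjusted p = 0.0112) and Aqp1, a water channel, fell by 2.73 (adjusted p = 0.0181). Both of these calls were lost without Control 1 (adjusted p = 0.0509 and 0.0506), and that of Aqp1 also without Control 3 (0.0654). In B16 against control, limma called 3 of the 7 higher and 0 lower (2 and 0 without Control 1). In GL261 against control, it called 1 higher and 2 lower (1 and 1 without Control 1). Of 8 lymphatic genes, 7 were tested and 3 fell (2 without Control 1), namely Mmrn1 by 2.56 (limma adjusted p = 0.0054), Reln by 2.35 (adjusted p = 0.0335) and Flt4 by 1.80 (adjusted p = 0.0160). The call of Flt4 was lost without Control 3 (adjusted p = 0.0522) and that of Reln without any 1 of Control 1, 2 and 3, GL261 1, 2 and 3 and B16 3 (adjusted p up to 0.0855). Of 7 genes of all endothelium, limma called 0 (median difference -0.04; 2 higher at an unadjusted p under 0.05 and 5 at a ROC power above 0.4).

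**Figure D4:**
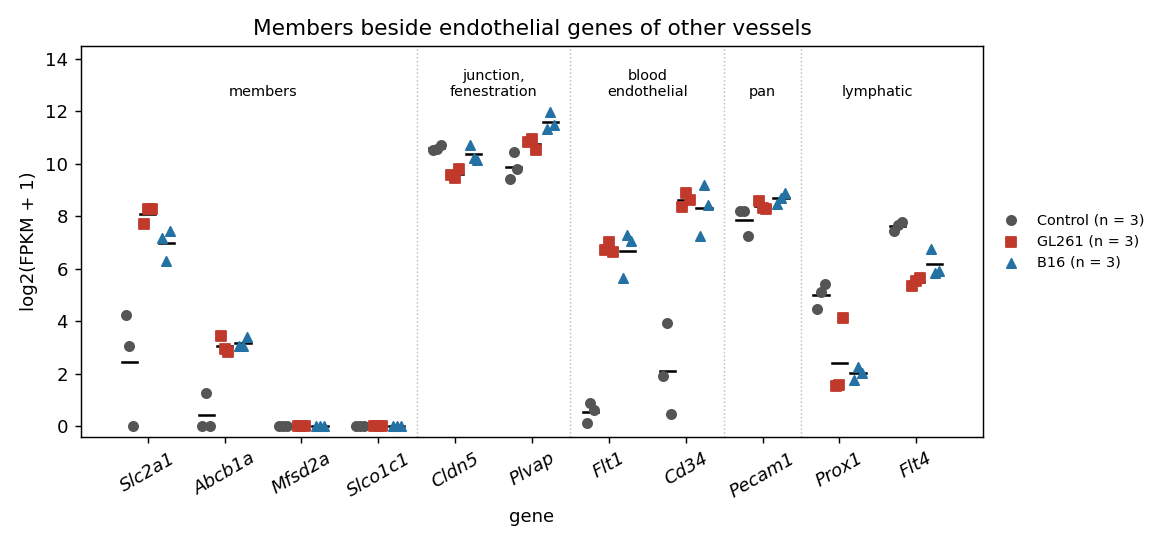
Levels as log2(FPKM + 1) (vertical axis) of 4 members beside Cldn5, Plvap and genes of blood, all and lymphatic endothelium (horizontal axis). Points are libraries and lines group means (3 libraries each). Flt1 and Cd34 are higher and Prox1 and Flt4 lower in all tumor libraries, while Mfsd2a and Slco1c1 stay at 0.

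Other cells that could bring these genes were followed by their markers. Astrocyte markers summed to 0 FPKM in control, at most 0.046 in GL261 and at most 0.089 in B16 libraries, and Gfap was listed at 0 throughout. Erythroid markers summed to 0 FPKM in control, at most 0.0027 in GL261 and at most 9.12 in B16 libraries, and Alas2 was listed at 0. Mural markers summed to 1269, 207 and 181 FPKM in control, between 18.1 and 68.1 FPKM in GL261 and between 103 and 137 FPKM in B16 libraries, and their part in the result was not tested. Arachnoid barrier markers reached 25.8 FPKM in control and 2.22 FPKM in tumor libraries, with Cdh1 listed at 0. Fibroblast markers summed to between 16 and 146 FPKM in control libraries and to at most 4.72 FPKM in those of tumors, and Dcn fell by 4.60 (limma adjusted p = 0.0011). Dcn passed the filter on low values through the 3 controls alone and was not tested without Control 1. Leukocyte markers overlapped (between 60.6 and 175 FPKM in control, between 4.38 and 362 FPKM in tumor), with Ptprc and Cd3e listed at 0. Melanoma markers reached 4.07 FPKM and glioma markers 9.08 FPKM in any library, with Mlana, Tyr and Sox2 listed at 0. Of the 10 genes of these lists that limma tested in tumor against control, Dcn alone was called (0 without Control 1).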

How the data were processed

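RNA was measured by Smart-seq2 in MLECs of 3 control, 3 GL261 and 3 B16 pools, grouped by the sample labels. Per the labels and methods, the authors aligned reads to mm9 with TopHat2 2.0.12 and deposited FPKM from Cufflinks 2.2.1, 1 value per gene symbol and library. The gene annotation is not given in the sources used here. Library sums of FPKM ranged from 652636 to 888312. The values hold no counts, so no counting error can be given for a single value. Read totals that the study gives for the libraries are lower in each control than in each tumor library.

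From these, log2(FPKM + 1) was tested with limma 3.58.1 under R 4.3.3, by lmFit and trended eBayes. A gene was tested where 3 or more libraries reached an FPKM of 1, which left 9955 genes. A gene listed at 0 in all controls could pass this filter only through tumor libraries. P-values were adjusted over all genes tested by Benjamini and Hochberg, and calls were made under 0.05. Tumor against control joined the GL261 and B16 libraries, and the single tumors were compared in 1 fit of 3 groups. P-values measure the spread between libraries. Each library held 10 cells of its own pool, so differences between pools and the sampling of cells cannot be told apart. Single genes also had a two-sided exact permutation test. ROC power is 2 times the distance of the area under the curve from its chance value. Positions came from GENCODE M1 (mm9) and upstream windows from RefSeq (GRCm38.p6), found for 8 of the 10 members. Shared sequence was counted as 50-base stretches of transcripts. Sequences were handled and figures drawn in Python 3.11.15 (numpy 2.4.6, pandas 2.3.3, matplotlib 3.10.9), and the fit was checked on simulated data.

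The members and gene lists were chosen with earlier results of these data known. Genes named are the members, 8 comparison genes (Cldn5, Plvap, Lef1, Slc3a2, Slc16a1, Abcb1b, Flt1, Prox1), at most 4 genes past the threshold with the largest difference in each list, and the 3 genes most like each member above 0 in at least 6 libraries. Other genes named were chosen after their values were seen. Alternatives were a pseudocount of 0.1, other filters and scalings, eBayes without a trend, a replicate block, a covariate for detected genes, pairwise fits, ROC power and leaving out each library. Counts without Control 1, at unadjusted p and at ROC power within lists were added after seeing the data.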

Additional observations from a re-analysis of the deposited data

Results flagged for a closer look

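Among the 18 member and comparison genes, 2 had a single tumor library far from the other 5, as the gap to the nearest value over the whole range of log2(FPKM + 1). For Spock2 the quotient was 1, since B16 3 (0.83 FPKM) was the only library above 0. For Prox1 it was 0.725, set by GL261 3 (16.5 FPKM, against 1.87 to 3.72 FPKM in the other tumor libraries), and without GL261 3 Prox1 fell by 3.18 (limma adjusted p = 0.0208) where it had missed the threshold with it. Chance marks about 1 in 20 groups in this way.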

How the results depend on the processing

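Slc2a1 was called in tumor against control in 16 of 17 alternatives (3.88 to 6.28), in GL261 in 17 of 18 and in B16 in 10 of 18 (adjusted p up to 0.165). The number of calls over all genes, 391 in tumor, 347 in GL261, 210 in B16 and 1 between tumors, depended on the setting. Without a filter on low values it was 254, 218 and 135 for the first 3 comparisons, and with detected genes as a covariate it was 13, 6 and 17. Every control had fewer detected genes than every tumor library (8688 in Control 2 and 8736 in B16 1), and under this covariate Flt1 (adjusted p = 0.0154), Ly6c1 (0.0008) and Phgdh (0.0336) were among the genes still called in tumor. ROC power above 0.4 gave 5137 in tumor. Fits on the libraries of both groups alone gave 197 in GL261 and 38 in B16. Between the tumors, quantile normalization gave 2 and eBayes without a trend 6. Leaving out single libraries gave 245 to 444 in tumor, 105 to 363 in GL261, 69 to 274 in B16 and 1 to 4 between the tumors, with the lowest counts of GL261 without GL261 2 and of B16 without B16 3.

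Replicate numbers did not pair the samples: same-numbered libraries of different groups had correlated deviations of -0.033 to 0.044 (9 pairs), beside -0.030 to 0.052 for the other 18 pairs. With the replicate block the calls were 303 in tumor, 230 in GL261, 146 in B16 and 1 between the tumors, and the calls of Abcb1a (adjusted p = 0.0711), Reln (0.0574) and Bnip3 (0.0515) were lost.

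Signs turned only among differences that were never called. In tumor against control, Abcg2 was -0.10 after rescaling, -0.013 after quantile normalization and -0.14 with the covariate (-0.39 to 0.42 with libraries left out), Cldn5 was 0.046 with the covariate, Abcb1b was 0.63 with a pseudocount of 0.1 (-0.65 to 0.00078 with libraries left out), and Bsg was -0.15 to 0.041 with libraries left out. In B16, Bsg was -0.010 after rescaling, -0.10 after quantile normalization and -0.20 with the covariate (-0.040 to 0.30 with libraries left out), and with libraries left out Abcg2 was -0.60 to 0.20 and Itm2a -0.49 to 0.11. With libraries left out, Abcg2 was -0.17 to 0.63 in GL261, and between the tumors Abcb1a was -0.29 to 0.020 and Slc7a5 -0.10 to 1.00. The cause of these turns was not tested. FPKM hold no counts, so a member listed at 0 may lie under the reach of a library of 10 cells.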

Other observations

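Besides the barrier genes, genes of the hypoxia response, a program that includes Slc2a1 as a known target, were described. Of 10, 9 were tested, 2 rose and 0 fell in tumor against control (2 without Control 1, namely Ldha and Ankrd37), with a median difference of 1.25 beside 0.20 over all genes. Ldha, the lactate dehydrogenase subunit, was at 107, 111 and 44.1 FPKM in control, 485, 508 and 428 FPKM in GL261 and 217, 368 and 560 FPKM in B16 libraries, and rose by 2.33 (SE 0.38, limma adjusted p = 0.0038; 2.53 and 0.0080 without Control 1). Bnip3, a mitophagy receptor, was listed at 0 in all controls and at 2.97 to 18.1 FPKM in tumor libraries (limma adjusted p = 0.0279), a call that was lost without any 1 of Control 1, 2 and 3, GL261 1 and B16 2 (adjusted p from 0.0503 to 0.0686). Bnip3 passed the filter on low values through tumor libraries alone. Adm and Ndrg1, other targets of this response named after their values were seen, went the other way without passing (-0.92 and -1.09, limma adjusted p = 0.297 and 0.216), and Car9 was listed at 0 throughout.

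Genes of the amino acid response and serine synthesis, which share nutrient supply with Slc7a5, gave 2 higher and 0 lower of 7 tested (3 without Control 1, with Ddit3 added). Phgdh, the first enzyme of serine synthesis, was listed at 0 in all controls, at 19.1, 49.5 and 70.7 FPKM in GL261 and at 157, 29.6 and 163 FPKM in B16 libraries (limma adjusted p = 0.0005). Asns, asparagine synthetase, was listed at 0 in all controls and at 8.32 to 42.2 FPKM in tumor libraries (limma adjusted p = 0.0038). Phgdh and Asns passed the filter on low values through tumor libraries alone, where they are high, so their p-values are no independent support. Trib3, a pseudokinase of this response named after its values were seen, was at 60.5, 17.9 and 10.9 FPKM in control and at most 18.3 FPKM in tumor libraries, without passing (adjusted p = 0.179).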
